A study of Mus musculus with 12 samples.

Results

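The resting state of Regnase-3 knockout macrophages was described from 6 of the 12 RNA sequencing libraries of a mouse series: 3 libraries labelled BMDM_M0_RankCre-Regnaes3cKO (cKO_M0, replicates 1, 2 and 3) and 3 labelled BMDM_M0_wildtype (WT_M0, replicates 4, 5 and 6). All 6 were bone marrow-derived macrophages, that is, cells of the marrow of femurs and tibiae cultured in L929-conditioned medium for 7 days, and none of the 6 received a stimulus. The other 6 libraries held both genotypes after lipopolysaccharide at 100 ng/ml with interferon-gamma at 10 ng/ml (cKO_M1 and WT_M1). A gene was included when it had at least 10 counts in at least 3 of the 6 unstimulated libraries, which left 14517 of the 56980 gene IDs. At that limit, 238 genes had exactly 10 counts in their third-highest library, such as Ablim1 with 9, 5 and 3 counts in cKO_M0 and 17, 14 and 10 in WT_M0. Another 180 genes had 9 there and were left out, such as Aarsd1 with 18, 8 and 13 counts in cKO_M0 and 9, 9 and 9 in WT_M0. The totals of the 6 libraries lay between 41721452 and 42197986 counts.

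The knockout label joins a Cre named for RANK, the receptor encoded by Tnfrsf11a, to a conditional allele of Regnase-3, the protein encoded by Zc3h12c. The control is called wild type, and a Cre-only control is not described, so an effect of the Cre and one of the deletion cannot be told apart. Recombination outside cells that express RANK was not measured. The labels do not say whether replicates came from separate mice or cultures, and the p-values then reflect only how far these samples spread, which may be technical. RNA came from whole cultures, where a lower value from fewer cells of a type and one from less RNA per cell cannot be told apart.

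Regnase proteins form a small family with a CCCH-type zinc finger beside a domain related to RNA nucleases. Its best-known member, Regnase-1 (Zc3h12a), cleaves mRNAs of inflammatory genes at stem-loops and so limits macrophage activation. Regnase-3 is expressed in macrophages and has been linked to the restraint of inflammation, and the stated aim of the series was its role in the polarization of Rank-positive macrophages.

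The targeted gene did not differ detectably between the unstimulated genotypes. Zc3h12c (ENSMUSG00000035164) had 703, 944 and 751 counts in cKO_M0 replicates 1, 2 and 3 and 878, 819 and 794 in WT_M0 replicates 4, 5 and 6. The ranges overlapped, with cKO_M0 replicate 2 the highest of all 6 (log2 fold change -0.07 with SE 0.12, adjusted p = 0.809, 95% interval -0.33 to 0.20). A total per gene also counts exons outside a deleted part, and the sources used here do not give the floxed exons, so in M0 this gene did not check the labels. In M1 the same gene was lower in cKO, with a log2 fold change of -0.68 (adjusted p = 0.00102). Tnfrsf11a had 4362, 4959 and 6921 counts in cKO_M0 and 5336, 6686 and 5458 in WT_M0, again overlapping (log2 fold change -0.12 with SE 0.20, adjusted p = 0.787). Of the other family members, Zc3h12a stood at 35.2, 44.6 and 42.7 CPM in cKO_M0 and 38.9, 42.6 and 42.6 in WT_M0, where CPM are counts after scaling of each library to the same size. Zc3h12a, Zc3h12b and Zc3h12d had log2 fold changes of -0.02, -0.35 and 0.06, and none of the 3 passed the test.

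The macrophage label was read against its markers. Adgre1, Csf1r, Cd68, Itgam, Fcgr1, Mertk, Lyz2 and Cd14 were detected in all 6 libraries, and the summed level of the 20 macrophage identity genes was 22554 to 23767 CPM in cKO_M0 and 22122 to 26612 CPM in WT_M0. WT_M0 replicate 5 had the lowest sum and the lowest count of Lyz2, the most abundant member (379889, against 449974 to 600989 in the others). Of these 20 genes, 2 fell, Mertk and Mpeg1 (described below), and none rose. At an unadjusted p under 0.05, 7 were lower and 0 higher, and the alternative tests DESeq2 and limma-voom called 5 and 2 lower and 0 higher. In 8 of the 20 the 3 knockout libraries were below the 3 wild-type libraries, a pattern seen in 12.9% of all genes. Of the sex-linked genes, Xist had 12188 to 14679 counts, Uty and Kdm5d were at 0 in all 6 libraries, and Ddx3y and Eif2s3y had 2 and 5 counts in WT_M0 replicate 4 and 0 in the other 5. The fibroblast genes Col1a1, Col1a2 and Col3a1 had 88, 73 and 73 counts in WT_M0 replicate 4 and at most 6 in any other, so that this library stood apart in them. T and NK cell markers summed to at most 1.10 CPM in any library, with Cd3e, Cd3g and Cd8a among the 8 at 0 counts in all 6. Erythroid markers summed to at most 1.94 CPM.

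Libraries of one group were not equally far from the other group. Along the first principal component of the 6 libraries, which held 39.3% of the variance, the WT_M0 libraries stood at -20.7, -9.18 and -26.6 and the cKO_M0 libraries at 2.01, 25.1 and 29.3. On this component WT_M0 replicate 5 and cKO_M0 replicate 1 were the libraries of their groups nearest the other group; on the second, with 22.2% of the variance, they lay apart at 18.2 and -26.3. Among the genes that passed the test below, WT_M0 replicate 5 was the wild-type library closest to the knockout for 72 of the 110 higher and 108 of the 143 lower genes. Likewise cKO_M0 replicate 1 was the knockout library closest to wild type for 62 and 97 of them.

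Few genes passed the test in the resting state, and most of those that did changed by less than 2-fold. With edgeR's quasi-likelihood test and Benjamini-Hochberg adjustment, 253 of 14517 genes (1.74%) passed at an adjusted p under 0.05, 110 higher in cKO (0.758%) and 143 lower (0.985%). Only 15 of the higher and 18 of the lower genes changed by at least 2-fold, and the median absolute log2 fold change of the genes that passed was 0.56. The median log2 fold change of all tested genes was 0.01, and this value and the shares of 0.758% and 0.985% are the background of every gene list below. The lists and their members were chosen with earlier results of these data known. A list's share set beside that background is therefore a description and not a test. At an unadjusted p under 0.05 there were 1529 higher and 1247 lower genes. The 3 cKO_M0 values lay entirely above or below the 3 WT_M0 values for 248 of the 253 genes, and for 3916 of all 14517 genes (27%). In M1, where both groups are other libraries, 2775 genes (19.1%) passed.

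**Figure D1:**
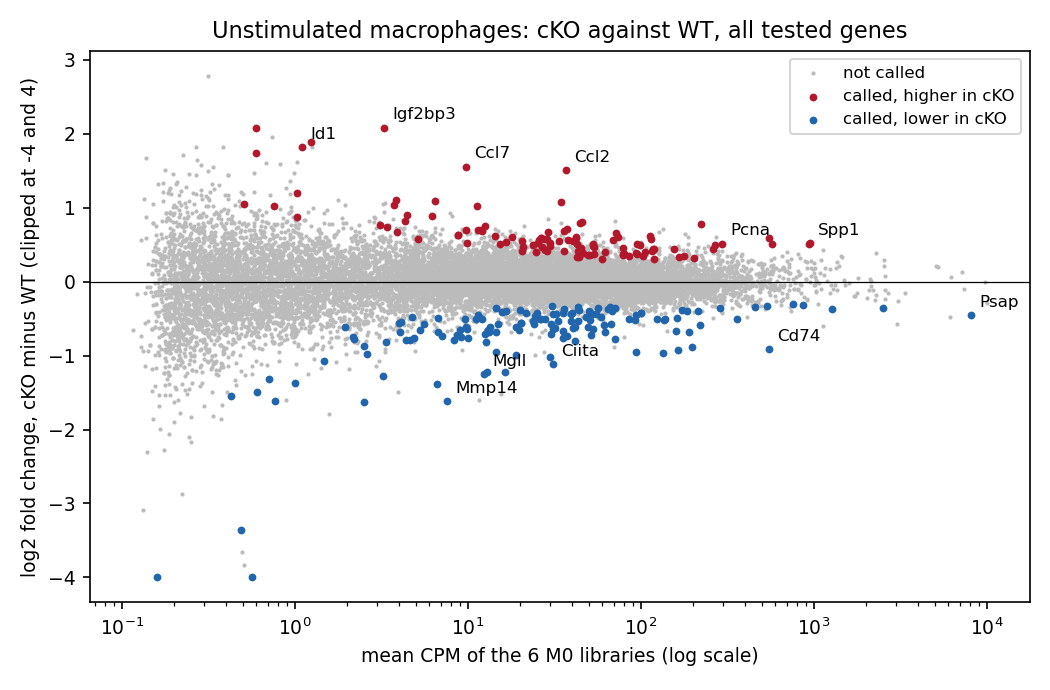
Each point is 1 of 14517 tested genes, placed by its mean CPM over the 6 unstimulated libraries (x axis, log scale) and its log2 fold change of cKO over WT (y axis, values beyond -4 or 4 drawn at those limits). Red points are the 110 genes that passed as higher in cKO, blue points the 143 that passed as lower, and gray points did not pass; most of the coloured points lie within 1 log2 unit of 0.

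The number of genes past the threshold depended on single libraries. Without cKO_M0 replicate 1 the count was 337 (2.32% of all genes), and without WT_M0 replicate 5 it was 406 (2.8%). Leaving out cKO_M0 replicate 2 gave 30 (0.207%) and leaving out WT_M0 replicate 4 gave 14 (0.0964%). Only 1 gene (0.00689%) passed when cKO_M0 replicate 3 was left out, and 1 (0.00689%) when WT_M0 replicate 6 was. The gene left in both of those fits was Ugt1a8, chosen here for that reason after its values were seen. The M1 libraries, which enter the scaling and the shared estimate of the spread, moved the count too, to 66 without WT_M1 replicate 10, 70 without cKO_M1 replicate 8 and 102 without WT_M1 replicate 12, and to 461 and 457 without cKO_M1 replicates 7 and 9. No gene passed as higher without cKO_M0 replicate 3 or WT_M0 replicate 6 (865 and 761 at an unadjusted p under 0.05). All 253 genes kept their direction in each of the 6 fits without 1 unstimulated library, which share most of their libraries. For 248 of them the groups did not overlap, so leaving out 1 library could hardly turn the direction. The kept direction is therefore no measure of stability. Of the 253, 28 passed in none of the 6 fits, 59 in 1, 139 in 2, 13 in 3, 13 in 4 and 1 in all 6. Every gene that is described as changed below, other than Ugt1a8, missed the threshold both without cKO_M0 replicate 3 and without WT_M0 replicate 6.

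Most measured genes of MHC class II antigen presentation fell, and with them the gene of their master regulator. Class II molecules are pairs of an alpha and a beta chain that present peptides from the endosomal route to CD4+ T cells, and macrophages carry them at a level that Ciita, a coactivator recruited to class II promoters, sets. Of 10 genes for chains and peptide loading, 9 were measured; 6 of these 9 fell, none rose (0 at an unadjusted p under 0.05, and 0 with DESeq2 or limma-voom), and the median log2 fold change was -0.91, against 0.01 and 0.985% lower over all genes. Their summed level was 828, 660.3 and 690.1 CPM in cKO_M0 replicates 1, 2 and 3 and 1427, 1049 and 1562 CPM in WT_M0 replicates 4, 5 and 6. The lowest wild-type sum was that of replicate 5 and the highest knockout sum that of replicate 1, so the groups did not overlap. Without either of these libraries 6 of the 9 passed as lower; without cKO_M0 replicate 2 or WT_M0 replicate 4 only 1 did, and without cKO_M0 replicate 3 or WT_M0 replicate 6 none did. Over these 6 fits the median lay between -1.01 and -0.59.

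Ciita (ENSMUSG00000022504) was measured at 22.3, 19.1 and 17.7 CPM in cKO_M0 and 44.9, 33.2 and 49.996 CPM in WT_M0. All knockout values lay below all wild-type values, and Ciita fell from a mean of 42.7 ± 8.61 to 19.7 ± 2.39 CPM (SD, n = 3; log2 fold change -1.12 with SE 0.15, adjusted p = 0.00509). Cd74, the invariant chain that occupies the groove of new class II molecules, had 426, 359 and 358 CPM in cKO_M0 and 744, 573 and 838 CPM in WT_M0, without overlap (log2 fold change -0.91 with SE 0.12, adjusted p = 0.00509). Ciita and Cd74 passed in 4 of the 6 fits that leave out 1 library; when cKO_M0 replicate 3 or WT_M0 replicate 6 was left out their adjusted p-values lay between 0.0542 and 0.0573.

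The classical chains moved by similar amounts. H2-Ab1 was at 102, 83.8 and 87.8 CPM in cKO_M0 and 197, 126 and 211 CPM in WT_M0 (log2 fold change -0.96 with SE 0.15, adjusted p = 0.0114). H2-Aa was at 138, 95.6 and 104 CPM in cKO_M0 and 232, 164 and 245 CPM in WT_M0 (log2 fold change -0.93 with SE 0.15, adjusted p = 0.0114). H2-Eb1 was at 70.4, 57.5 and 62.9 CPM in cKO_M0 and 129, 86.9 and 152 CPM in WT_M0 (log2 fold change -0.95 with SE 0.15, adjusted p = 0.0117). None of the 3 overlapped between groups, and each had its lowest wild-type value in replicate 5. For these 3 genes the adjusted p was at most 0.0918 without cKO_M0 replicate 3, 0.0578 when replicate 2 was left out instead, 0.0982 without WT_M0 replicate 6 and 0.0660 when replicate 4 was. The genes of H2-DM, which exchanges the invariant chain fragment for peptide, fell too, with log2 fold changes of -0.61 for H2-DMa (adjusted p = 0.0217) and -0.52 for H2-DMb1 (adjusted p = 0.0460). The related H2-DMb2, at 1.98, 0.834 and 1.45 CPM in cKO_M0 and 1.33, 1.65 and 1.46 in WT_M0, overlapped (log2 fold change -0.06 with SE 0.27, adjusted p = 0.931). The chains of H2-O, which limits H2-DM, did not pass either (H2-Oa -0.92 and H2-Ob 0.13), at levels of at most 1.47 CPM. The H2 genes are close relatives, and the sources used here do not give how reads matching several of them were counted.

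No other gene on the list of class II transcription factors passed, so that Ciita was 1 of 9. That list also held Sp110, which did not pass (adjusted p = 0.741 in edgeR's test). The X box factors Rfx5, Rfxank and Rfxap had log2 fold changes of -0.35, -0.02 and 0.02, and the NF-Y subunits Nfya, Nfyb and Nfyc had 0.02, 0.18 and 0.05. Creb1, whose product also binds the X region, had -0.14. Rfx5 and Creb1 were lower and Nfyb higher in all 3 knockout libraries, with adjusted p-values of 0.222, 0.344 and 0.304. MHC class I genes did not pass: 0 of 16 were called (1 higher and 0 lower at an unadjusted p under 0.05, and 0 with DESeq2 or limma-voom), with a median of -0.02. H2-D1 had 1957, 2181 and 2295 CPM in cKO_M0 and 2469, 2205 and 2619 CPM in WT_M0, which overlap.

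**Figure D2:**
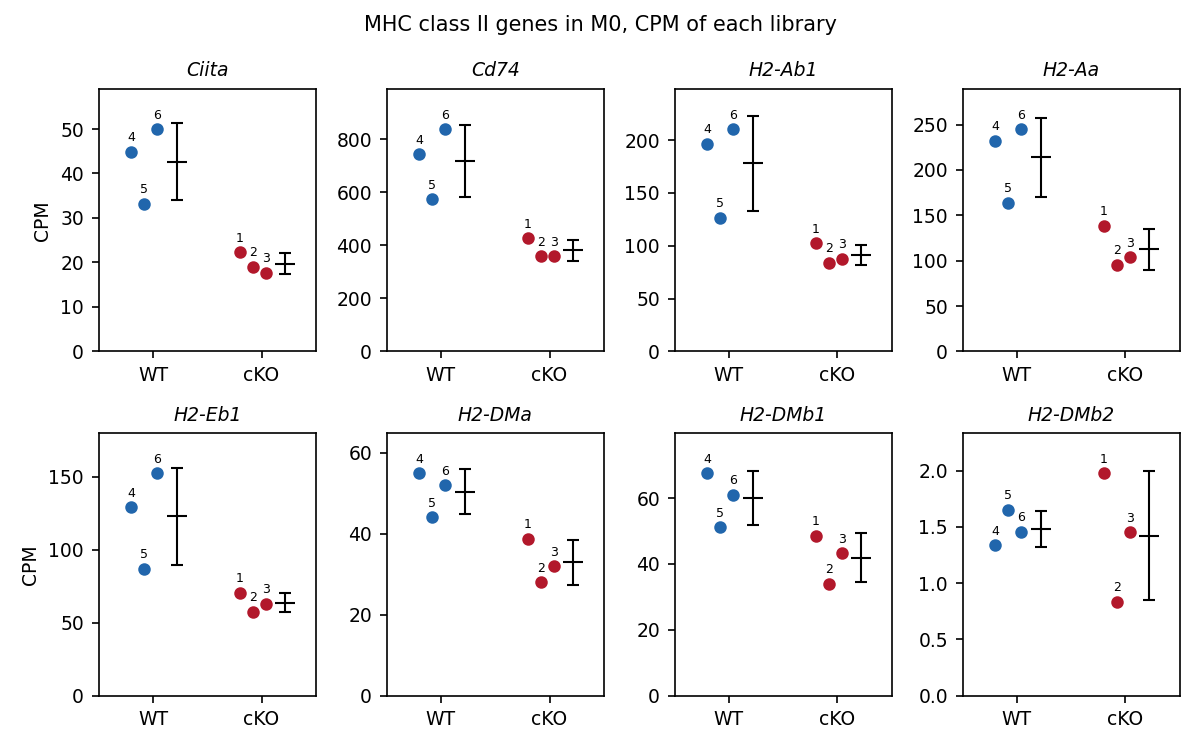
Points are the CPM of each unstimulated library, labelled with its replicate number, for Ciita, Cd74 and 6 class II genes (y axes from 0, blue for WT and red for cKO); the line and bars beside them are the mean and SD of 3 libraries. In 7 of the 8 panels every cKO value lies below every WT value, with WT replicate 5 the lowest WT point and cKO replicate 1 the highest cKO point; H2-DMb2 overlaps.

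The shared sequence of class II promoters is shown here because these genes moved together. Of the 7 genes of this group that fell, Ciita included, 4 had a promoter window in the RefSeq table used (build GRCm38.p6, not the GRCm39 build of the counts). The windows below are the 120 bases before the annotated start, 5′ to 3′ on the strand of the gene, with each CCAAT, or ATTGG on the other strand, in capitals; that pentamer is the core of the Y box, to which NF-Y binds.
H2-Aa, chr17:34287824-34287943, minus strand: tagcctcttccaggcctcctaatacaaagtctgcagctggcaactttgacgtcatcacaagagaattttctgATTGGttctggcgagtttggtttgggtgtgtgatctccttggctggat
H2-Eb1, chr17:34305747-34305866, plus strand: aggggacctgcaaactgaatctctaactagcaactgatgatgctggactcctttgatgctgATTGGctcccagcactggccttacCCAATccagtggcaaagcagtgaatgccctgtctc
H2-DMb1, chr17:34153071-34153190, plus strand: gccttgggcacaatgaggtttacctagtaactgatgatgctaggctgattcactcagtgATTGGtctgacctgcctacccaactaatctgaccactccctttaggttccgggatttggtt
The match begins 48 bases before the start in H2-Aa and 61 bases before it in H2-DMb1, and H2-Eb1 has matches at 59 and 35 bases. Neither of the 2 windows listed for H2-DMa holds the pentamer. Of all 32851 windows in the table, 6994 (21.3%) hold it within the same 120 bases.

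Markers of other cells that carry class II were read beside this result. The 16 dendritic cell markers summed to 63.2 to 81.9 CPM in cKO_M0 and 104.2 to 107.5 CPM in WT_M0, and 2 of the 12 measured fell. Itgax, which encodes the integrin CD11c and is also expressed by macrophages, had 48.8, 36.7 and 39.4 CPM in cKO_M0 and 63.8, 68.7 and 61.1 CPM in WT_M0 (log2 fold change -0.63 with SE 0.14, adjusted p = 0.0407). Cd4 had 8.57, 9.02 and 10.2 CPM and 17.4, 12.7 and 18.6 CPM (log2 fold change -0.81 with SE 0.14, adjusted p = 0.0172). Flt3, Xcr1 and Clec9a, which mark dendritic cells more narrowly, had at most 13 counts in any of the 6 libraries. Other members had more: Irf4 had 390, 277 and 324 counts in cKO_M0 and 420, 394 and 483 in WT_M0. Ccr7 went the other way, with 18, 14 and 26 against 11, 12 and 8. Of the 12 measured, 4 lay below wild type in all knockout libraries and 1 above, as did 12.9% and 14.1% of all genes. The part of dendritic cells in the class II values was not tested. B and plasma cell markers summed to 65.7, 32.7 and 34.3 CPM in cKO_M0 replicates 1, 2 and 3 and to 53.7 to 71.1 CPM in WT_M0, with Ebf1 and Igll1 at 0 in all 6 libraries. None of 5 measured passed edgeR's test (0 higher and 1 lower at an unadjusted p under 0.05, 0 with DESeq2 and 1 lower with limma-voom), and without cKO_M0 replicate 1 it was 3 lower. Igkc, an immunoglobulin light chain gene, had 318, 4 and 0 counts in cKO_M0 and 386, 171 and 341 in WT_M0, and Ighm had 2493, 1573 and 1628 against 2914, 2316 and 2844. The cKO_M0 replicate 1 counts of Igkc and Ighm were within the wild-type range. Jchain had 284, 8 and 2 counts in cKO_M0 and 216, 99 and 191 in WT_M0, and Iglc1 had 189, 0 and 1 against 58, 28 and 63. For Jchain and Iglc1, cKO_M0 replicate 1 was thus the highest of all 6 libraries. Cd79b had 117, 89 and 124 counts in cKO_M0 and 86, 98 and 91 in WT_M0. The part of B cells in the class II values was not tested. Mast cell, basophil and eosinophil markers summed to 31.0 to 35.7 CPM in cKO_M0 and 26.05 to 29.7 CPM in WT_M0, with none of 5 past edgeR's test (1 higher and 1 lower at an unadjusted p under 0.05, and 1 higher with DESeq2 and with limma-voom). That sum was carried mostly by Ccr3, with 1112, 1282 and 1387 counts in cKO_M0 and 886, 894 and 790 in WT_M0. Of the 5, 1 lay above wild type in all knockout libraries and 2, Kit and Siglecf, below, and the median log2 fold change was -0.35.

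Chemokine genes were among the largest rises. Ccl2, which attracts monocytes through the receptor CCR2, was at 43.8, 54.2 and 65.3 CPM in cKO_M0 replicates 1, 2 and 3 and 17.2, 25.3 and 14.9 CPM in WT_M0 replicates 4, 5 and 6. The groups did not overlap, and the mean rose from 19.1 ± 5.45 to 54.4 ± 10.8 CPM (log2 fold change 1.51 with SE 0.24, adjusted p = 0.0114). Ccl7, a neighbour of Ccl2 that acts on the same receptor, had 9.99, 17.05 and 16.6 CPM in cKO_M0 and 4.16, 7.02 and 3.65 CPM in WT_M0 (log2 fold change 1.56 with SE 0.29, adjusted p = 0.0229). For both genes WT_M0 replicate 5 was the highest wild-type library and cKO_M0 replicate 1 the lowest knockout library. Ccl9, an abundant myeloid chemokine of mice, had 1149, 992 and 1183 CPM in cKO_M0 and 867, 785 and 675 CPM in WT_M0 (log2 fold change 0.51 with SE 0.11, adjusted p = 0.0407). Ccl2, Ccl7 and Ccl9 were the 3 that passed among 13 measured of 14 CC chemokine genes, where 0.758% of all genes were higher, and none fell (1 at an unadjusted p under 0.05, 1 with DESeq2 and 0 with limma-voom). The median of the 13 was 0.25. The adjusted p of these 3 genes was at most 0.224 without cKO_M0 replicate 3, 0.0740 when replicate 2 was left out instead, 0.258 without WT_M0 replicate 6 and 0.103 when replicate 4 was.

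The remaining CC chemokine genes ranged widely. Ccl12 was above wild type in all 3 knockout libraries and did not pass (log2 fold change 0.73 with SE 0.21, adjusted p = 0.0933). Ccl3 and Ccl4, chemoattractants of monocytes and T cells, had log2 fold changes of 0.25 and 0.25 and did not pass. Ccl6 and Ccl22 had 0.15 and 0.70, Ccl25 0.18, Ccl5 -0.18, Ccl27a -0.27, Ccl24 -0.59 and Ccl8 -1.48, none past the threshold. Ccl8, Ccl22, Ccl24 and Ccl27a stood below 1 CPM in every library, which limits what could be detected. Of 8 measured CXC and CX3C chemokine genes 1 rose, the neutrophil chemoattractant gene Cxcl2, with 3.24, 5.74 and 6.11 CPM in cKO_M0 and 2.96, 2.05 and 2.35 CPM in WT_M0 (log2 fold change 1.03 with SE 0.20, adjusted p = 0.0293). Its value in cKO_M0 replicate 1 was just above the highest wild-type value. For Cxcl2 the adjusted p was at most 0.188 without cKO_M0 replicate 3, 0.0826 when replicate 2 was left out instead, 0.190 without WT_M0 replicate 6 and 0.0687 when replicate 4 was.

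Mediators of inflammation rose for 2 of 19 measured genes and fell for none (4 lower at an unadjusted p under 0.05, 1 with DESeq2 and 0 with limma-voom). Tnf had 29.5, 39.3 and 36.2 CPM in cKO_M0 and 24.2, 25.98 and 23.1 CPM in WT_M0 (log2 fold change 0.52 with SE 0.11, adjusted p = 0.0363). Ptgs2, which encodes the inducible cyclooxygenase COX-2, had 0.978, 1.82 and 1.49 CPM in cKO_M0 and 0.773, 0.669 and 0.427 CPM in WT_M0, a low level in both (log2 fold change 1.19 with SE 0.23, adjusted p = 0.0258). Neither overlapped between groups, and their adjusted p was at most 0.196 without cKO_M0 replicate 3, 0.0926 when replicate 2 was left out instead, 0.250 without WT_M0 replicate 6 and 0.114 when replicate 4 was. Il1b, chosen after its value was seen, stood at most at 0.580 CPM and did not pass (log2 fold change -1.39 with SE 0.52, adjusted p = 0.166). Among receptors, Cx3cr1 rose (68.8, 109 and 86.8 CPM in cKO_M0 and 47.7, 67.7 and 52.9 CPM in WT_M0; log2 fold change 0.66 with SE 0.15, adjusted p = 0.0459) and Cmklr1, the chemerin receptor, fell (15.9, 17.4 and 16.3 CPM in cKO_M0 and 24.6, 20.4 and 27.8 CPM in WT_M0; log2 fold change -0.56 with SE 0.10, adjusted p = 0.0229). Ly6a rose with values of 27.1, 62.6 and 51.5 CPM in cKO_M0 and 18.8, 28.8 and 19.3 CPM in WT_M0, where cKO_M0 replicate 1 was below WT_M0 replicate 5 (log2 fold change 1.08 with SE 0.24, adjusted p = 0.0446). Cx3cr1 and Ly6a were the 2 of 9 measured monocyte genes that passed, and the summed level of that list was 232 to 309.6 CPM in cKO_M0 and 213 to 232 CPM in WT_M0.

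**Figure D3:**
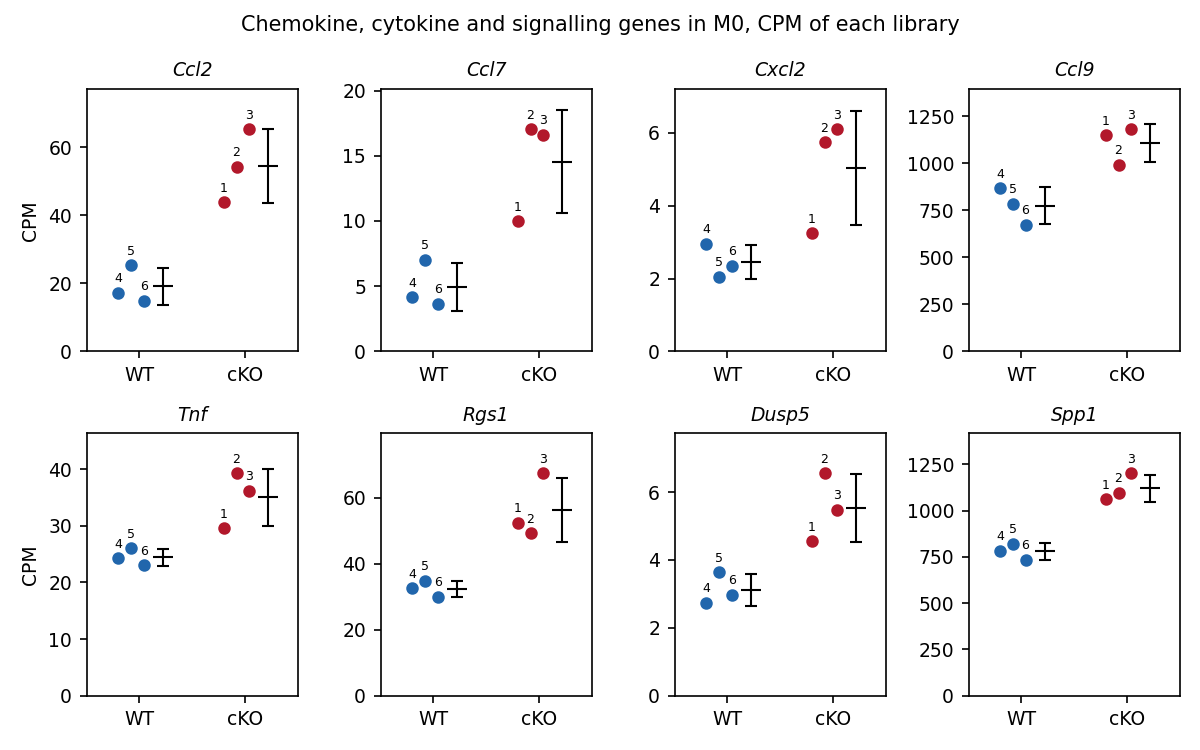
Points are the CPM of each unstimulated library, labelled with its replicate number, for 8 genes that rose (y axes from 0, blue for WT and red for cKO), with the mean and SD of 3 libraries beside them. In every panel the 3 cKO values lie above the 3 WT values. The lowest cKO point is replicate 1 for Ccl2, Ccl7, Cxcl2, Tnf, Dusp5 and Spp1, and replicate 2 for Ccl9 and Rgs1.

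Of 23 measured genes that restrain ERK or G protein signalling, or respond to it, 4 rose, where 0.758% of all genes did. Rgs1, a GTPase-activating protein that shortens chemokine receptor signals, was at 52.4, 49.2 and 67.4 CPM in cKO_M0 and 32.6, 34.8 and 29.99 CPM in WT_M0 (log2 fold change 0.80 with SE 0.12, adjusted p = 0.0106). Rgs2, of the same family, was at 178, 166 and 194 CPM in cKO_M0 and 134, 136 and 126 CPM in WT_M0 (log2 fold change 0.45 with SE 0.09, adjusted p = 0.0375). Dusp5, a nuclear phosphatase of ERK, was at 4.55, 6.56 and 5.48 CPM in cKO_M0 and 2.75, 3.64 and 2.97 CPM in WT_M0 (log2 fold change 0.83 with SE 0.16, adjusted p = 0.0265). With Hmga2, a chromatin protein of proliferating cells (log2 fold change 0.81 with SE 0.18, adjusted p = 0.0425), these were the 4, and 0 fell (0 lower at an unadjusted p under 0.05, with DESeq2 and with limma-voom), at a median of 0.26. Id1, an inhibitor of basic helix-loop-helix factors, was the 1 immediate early gene of 26 that passed, at 1.44, 1.63 and 2.11 CPM in cKO_M0 and 0.503, 0.531 and 0.427 CPM in WT_M0 (log2 fold change 1.82 with SE 0.25, adjusted p = 0.00547). Rgs1 and Id1 passed in 4 of the 6 fits without 1 library, and for Rgs2, Dusp5 and Hmga2 the adjusted p was at most 0.224 without cKO_M0 replicate 3, 0.101 when replicate 2 was left out instead, 0.265 without WT_M0 replicate 6 and 0.136 when replicate 4 was.

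Secreted Spp1 and other single genes with large or abundant rises completed that side. Spp1, which encodes osteopontin, was at 1062, 1096 and 1202 CPM in cKO_M0 and 783, 822 and 734 CPM in WT_M0 (log2 fold change 0.52 with SE 0.08, adjusted p = 0.0114). Raet1d, a gene of the RAE-1 ligands of NKG2D, was at 15.2, 15.8 and 14.7 CPM in cKO_M0 and 8.66, 7.89 and 5.85 CPM in WT_M0 (log2 fold change 1.03 with SE 0.16, adjusted p = 0.0114). It has near-identical relatives, so its counts are uncertain. Glipr2 was at 7.10, 8.96 and 8.16 CPM in cKO_M0 and 4.37, 4.72 and 3.98 CPM in WT_M0 (log2 fold change 0.89 with SE 0.13, adjusted p = 0.0106). Of the most abundant genes that rose, Lgals1, which encodes galectin-1, had a log2 fold change of 0.59 and mt-Nd2, a subunit of mitochondrial complex I, one of 0.52. Both of these passed in none of the 6 fits that leave out 1 library. Cycs, the gene of cytochrome c, rose by 0.72 on the log2 scale, Hmgn3 by 0.76, Nup43 by 0.70 and Lsm3 by 0.70, of which Lsm3 also passed in none of the 6.

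Genes of cell proliferation formed the widest group of rises. Of 50 genes of the G1/S transition and DNA replication, 11 rose, none fell (0 lower at an unadjusted p under 0.05, with DESeq2 and with limma-voom) and all 50 had a log2 fold change above 0, with a median of 0.35. In 25 of the 50 the 3 knockout libraries were above the 3 wild-type libraries, a pattern seen in 14.1% of all genes. Of 52 genes of mitosis and the kinetochore, 7 rose and 0 fell (0 lower at an unadjusted p under 0.05, with DESeq2 and with limma-voom). All 52 were above 0, with a median of 0.28 and 35 without overlap. The summed level of the G1/S list was 3576, 4232 and 4160.4 CPM in cKO_M0 replicates 1, 2 and 3 and 2893, 3611 and 2888 CPM in WT_M0 replicates 4, 5 and 6. By that sum WT_M0 replicate 5 lay above cKO_M0 replicate 1. The mitosis sums were 5293, 5415 and 5134 CPM and 4262, 4834 and 4264 CPM, without overlap. Without cKO_M0 replicate 3 or WT_M0 replicate 6 none of these genes passed, while without cKO_M0 replicate 1 or WT_M0 replicate 5 the G1/S list had 12 and 19 higher genes and the mitosis list 3 and 8. Without cKO_M0 replicate 2 each list had 2, and without WT_M0 replicate 4 each had 1. The G1/S median stayed between 0.28 and 0.46 over the 6 fits without 1 library, and the mitosis median between 0.24 and 0.34.

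Single members show the size of these differences. Gmnn, which encodes geminin, an inhibitor of replication licensing, was at 51.1, 47.9 and 52.9 CPM in cKO_M0 and 34.1, 35.2 and 30.7 CPM in WT_M0 (log2 fold change 0.60 with SE 0.08, adjusted p = 0.00509). Pcna, the sliding clamp of DNA polymerases, was at 324, 336 and 379 CPM in cKO_M0 and 246, 263 and 219 CPM in WT_M0 (log2 fold change 0.51 with SE 0.09, adjusted p = 0.0229). The E-type cyclins Ccne1 and Ccne2, which drive entry into S phase, rose by 0.56 and 0.67 on the log2 scale (adjusted p = 0.0366 and 0.0163). The D-type cyclins Ccnd1 and Ccnd2 also passed, at 0.78 and 1.11. Both overlapped between groups, since WT_M0 replicate 5, at 218 CPM for Ccnd1, was above cKO_M0 replicate 1, at 209 CPM. Both lie outside the rule for named genes and were chosen after their values were seen. Of the kinetochore genes, Cenpk was at 9.74, 7.45 and 9.26 CPM in cKO_M0 and 5.07, 3.44 and 3.90 CPM in WT_M0 (log2 fold change 1.09 with SE 0.19, adjusted p = 0.0201). Mad2l1, a component of the spindle checkpoint, was at 87.2, 73.5 and 84.8 CPM and 59.1, 54.9 and 52.5 CPM (log2 fold change 0.56 with SE 0.11, adjusted p = 0.0290), and Spc24, Spc25 and Pbk rose by 0.52, 0.51 and 0.46. Spc25 passed in none of the 6 fits without 1 library. Psmc3ip, which acts in homologous recombination, and Aunip, a partner of Aurora A at the centrosome, rose by 0.90 and 0.69.

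A gene that arrests the cycle moved the same way. Cdkn1a, which encodes p21, was at 275, 348 and 319.9 CPM in cKO_M0 and 221, 240.4 and 210.5 CPM in WT_M0 (log2 fold change 0.49 with SE 0.11, adjusted p = 0.0435), the 1 of 18 genes of CDK inhibition and growth arrest that passed. Proliferation was not measured in these cultures other than through RNA.

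Cytosolic ribosomal protein genes were slightly higher without passing. Of 52, 0 passed (12 higher and 0 lower at an unadjusted p under 0.05, 1 higher with DESeq2 and 0 with limma-voom), while 51 had a log2 fold change above 0, with a median of 0.27. Their summed level was 17072, 13542 and 17019 CPM in cKO_M0 and 15247, 12200 and 13028 CPM in WT_M0, which overlap. Rpl27 had 91.9, 90.4 and 103 CPM in cKO_M0 and 67.04, 63.5 and 58.1 CPM in WT_M0 (log2 fold change 0.60 with SE 0.19, adjusted p = 0.110). Gene length moved with the comparison: the median log2 fold change was 0.10 in the shortest 10% of genes and -0.08 in the longest 10%. Libraries did not divide by genotype in this: in the shortest 10% the median log2 deviation from the mean of the libraries was 0.07, -0.04 and 0.07 in cKO_M0 replicates 1, 2 and 3 and 0.05, -0.07 and -0.08 in WT_M0 replicates 4, 5 and 6. Genes that passed as higher had a median length of 3168.5 bases and those that passed as lower 4778, against 3926 for all. With that trend removed, an alternative chosen after seeing the data, the ribosomal median was 0.20, the G1/S median 0.33 with 14 of 50 higher, the mitosis median 0.28 with 12 of 52 higher, and 6 of 9 class II genes were lower.

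**Figure D4:**
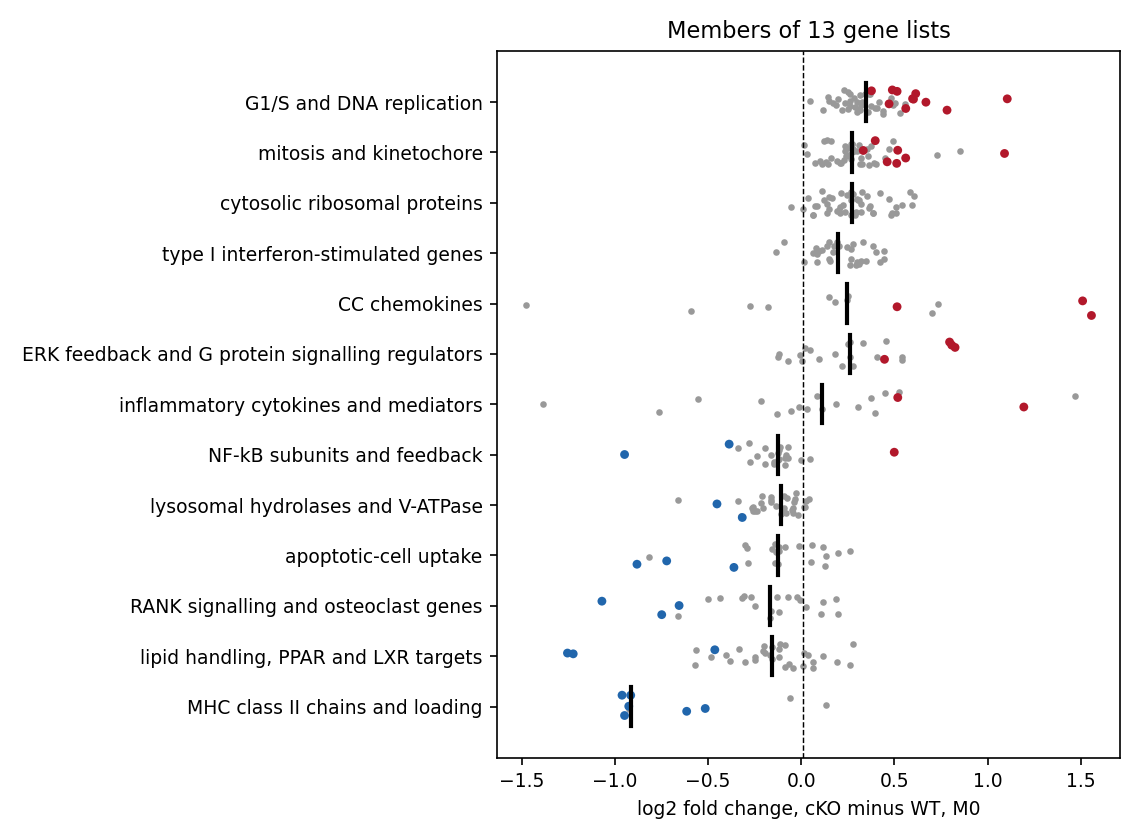
Each row is a gene list and each point a measured member at its log2 fold change of cKO over WT in the unstimulated state (x axis); red and blue points passed as higher and lower, gray points did not, and point height within a row carries no meaning. Black bars mark the median of each list and the dashed line the median of all tested genes (0.01); the G1/S, mitosis and ribosomal rows lie almost wholly to its right, and the class II row reaches furthest left by its median of -0.91.

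Of 23 measured genes for the uptake of apoptotic cells, 3 fell, where 0.985% of all genes did. Mertk, a receptor kinase that recognises bridging proteins on dying cells, was at 44.001, 39.5 and 33.2 CPM in cKO_M0 and 67.04, 54.2 and 71.2 CPM in WT_M0 (log2 fold change -0.72 with SE 0.11, adjusted p = 0.0108). Mfge8, a bridge between phosphatidylserine and integrins, was at 161, 109 and 145 CPM in cKO_M0 and 261, 228 and 275 CPM in WT_M0 (log2 fold change -0.88 with SE 0.16, adjusted p = 0.0229). Itgb5, an integrin subunit that binds Mfge8, was at 240.2, 262 and 251 CPM in cKO_M0 and 311, 312 and 345 CPM in WT_M0 (log2 fold change -0.36 with SE 0.07, adjusted p = 0.0363). In each of the 3 the groups did not overlap. The median of the list was -0.13, and none of its genes rose (1 at an unadjusted p under 0.05, 1 with DESeq2 and 0 with limma-voom). Of their relatives Axl and Gas6, named after their values were seen, Axl had a log2 fold change of -0.29 and Gas6 of -0.29, and neither passed. The adjusted p-values of Mertk, Mfge8 and Itgb5 were at most 0.196 without cKO_M0 replicate 3, 0.0777 when replicate 2 was left out instead, 0.253 without WT_M0 replicate 6 and 0.0973 when replicate 4 was.

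Of 29 scavenger and Fc receptor genes, 2 rose and 2 fell. Fcgr2b, the inhibitory Fc gamma receptor, was at 39.8, 24.9 and 26.6 CPM in cKO_M0 and 57.9, 40.9 and 60.6 CPM in WT_M0 (log2 fold change -0.80 with SE 0.16, adjusted p = 0.0324). Ms4a4a, a tetraspan surface protein of macrophages, was at 15.96, 11.8 and 10.6 CPM in cKO_M0 and 27.3, 17.1 and 31.6 CPM in WT_M0 (log2 fold change -0.99 with SE 0.18, adjusted p = 0.0229). Folr2, a folate receptor of tissue macrophages, rose, with 110, 137 and 162 CPM in cKO_M0 and 91.9, 92.95 and 81.7 CPM in WT_M0 (log2 fold change 0.62 with SE 0.13, adjusted p = 0.0405). Msr1, the class A scavenger receptor, rose by 0.32 on the log2 scale (adjusted p = 0.0456). The adjusted p of these 4 genes was at most 0.241 without cKO_M0 replicate 3, 0.115 when replicate 2 was left out instead, 0.292 without WT_M0 replicate 6 and 0.120 when replicate 4 was. Csf3r, the receptor of granulocyte colony-stimulating factor, fell (log2 fold change -0.76 with SE 0.14, adjusted p = 0.0254); it was the 1 of 9 measured neutrophil markers that passed, and Ly6g and Stfa1 were at 0 in all 6 libraries. The neutrophil marker sum was 39.4 to 52.9 CPM in cKO_M0 and 55.3 to 76.2 CPM in WT_M0. Vwf, the 1 of 9 platelet and megakaryocyte markers that passed, fell from 76.7 ± 5.40 to 47.7 ± 4.84 CPM (log2 fold change -0.68 with SE 0.13, adjusted p = 0.0265). DESeq2 called 2 of these 9 lower and limma-voom 1. Their list summed to 149 to 195 CPM in cKO_M0 and 175 to 199 CPM in WT_M0, which overlap. Pf4, another platelet marker, had 6313, 4890 and 4919 counts in cKO_M0 and 4987, 4046 and 4730 in WT_M0. The part of other cells in the values of Csf3r and Vwf was not tested. Mpeg1, which encodes the pore-forming perforin-2, fell by 0.36 on the log2 scale (adjusted p = 0.0425).

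Lysosomal genes were a little lower as a list, with few past the test. Of 35 genes of hydrolases, membrane proteins and the V-ATPase, 2 fell and 0 rose (0 higher at an unadjusted p under 0.05, with DESeq2 and with limma-voom); 31 were below 0, with a median of -0.11. In 16 of them the 3 knockout libraries were below the 3 wild-type libraries, a pattern seen in 12.9% of all genes. Psap, the precursor of the saposins that help degrade sphingolipids, was the most abundant gene that passed, at 7124, 6724 and 6548 CPM in cKO_M0 and 9165, 8581 and 10155 CPM in WT_M0 (log2 fold change -0.45 with SE 0.09, adjusted p = 0.0265). Ctsz, the cysteine protease cathepsin Z, was at 779, 759 and 791 CPM in cKO_M0 and 978, 932 and 988 CPM in WT_M0 (log2 fold change -0.32 with SE 0.07, adjusted p = 0.0456). Their adjusted p was at most 0.224 without cKO_M0 replicate 3, 0.112 when replicate 2 was left out instead, 0.270 without WT_M0 replicate 6 and 0.138 when replicate 4 was. Of 6 genes that supply and turn over class II peptides 0 passed (1 higher and 3 lower at an unadjusted p under 0.05, 1 higher and 2 lower with DESeq2, 1 and 1 with limma-voom). Ctsb and Ctsl, whose groups did not overlap, had log2 fold changes of -0.29 and 0.39 in opposite directions (adjusted p = 0.0604 and 0.0594).

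Genes of RANK signalling and of the osteoclast, the bone-resorbing cell that RANK induces, fell for 3 of 22 measured members, where 0.985% of all genes did, and none rose (0 at an unadjusted p under 0.05, with DESeq2 and with limma-voom). The median of the 22 was -0.17. Src, a kinase that osteoclasts need for bone resorption, was at 15.9, 14.4 and 15.6 CPM in cKO_M0 and 23.7, 23.8 and 24.96 CPM in WT_M0 (log2 fold change -0.66 with SE 0.10, adjusted p = 0.0106). Acp5, tartrate-resistant acid phosphatase, was at 9.23, 5.22 and 6.11 CPM in cKO_M0 and 13.1, 11.1 and 10.4 CPM in WT_M0 (log2 fold change -0.75 with SE 0.17, adjusted p = 0.0451). Mmp9, a gelatinase, was at 0.882, 1.24 and 0.736 CPM in cKO_M0 and 2.67, 1.51 and 1.83 CPM in WT_M0 (log2 fold change -1.07 with SE 0.24, adjusted p = 0.0431). Src passed in 4 of the 6 fits without 1 library, Acp5 in 2 and Mmp9 in 1, and the adjusted p of the last 2 was at most 0.241 without cKO_M0 replicate 3, 0.112 when replicate 2 was left out instead, 0.186 without WT_M0 replicate 6 and 0.142 when replicate 4 was. The osteoclast regulator Nfatc1 and the protease gene Ctsk, named after their values were seen, had -0.25 and -0.44 and did not pass.

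Of 23 measured genes of metalloproteinases, their inhibitors and matrix, 3 fell and 1 rose. Mmp14, a membrane-bound metalloproteinase, was at 5.47, 2.68 and 3.06 CPM in cKO_M0 and 13.1, 8.0048 and 13.2 CPM in WT_M0, and the knockout values were all below the wild-type values (log2 fold change -1.61 with SE 0.23, adjusted p = 0.0106). Lox, which cross-links collagen and elastin, was at 1.59, 1.164 and 0.950 CPM in cKO_M0 and 4.23, 2.95 and 4.25 CPM in WT_M0 (log2 fold change -1.62 with SE 0.21, adjusted p = 0.00509). With Mmp9, these were the 3 that fell, and Spp1 was the gene that rose. Mmp14 and Lox passed in 4 of the 6 fits without 1 library. Without WT_M0 replicate 4, the library with the fibroblast collagen counts, their log2 fold changes were -1.51 and -1.54 (adjusted p = 0.0468 and 0.0316). Stromal and fibroblast markers summed to 20.6 to 31.0 CPM in cKO_M0 and 26.2 to 32.1 CPM in WT_M0, a sum carried mostly by the endothelial gene Kdr, and none of 6 measured passed (0 higher and 1 lower at an unadjusted p under 0.05, 0 with DESeq2 and limma-voom).

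Genes on the list of lipid handling and of targets of the nuclear receptors PPAR and LXR fell for 3 of 34 measured. None rose (2 at an unadjusted p under 0.05, 2 with DESeq2 and 0 with limma-voom), and the median was -0.15. Mgll, monoacylglycerol lipase, was at 10.3, 4.50 and 7.25 CPM in cKO_M0 and 16.9, 17.2 and 18.5 CPM in WT_M0 (log2 fold change -1.25 with SE 0.22, adjusted p = 0.0217). Dio2, the deiodinase that activates thyroid hormone, was at 10.2, 5.90 and 7.02 CPM in cKO_M0 and 17.7, 14.4 and 21.9 CPM in WT_M0 (log2 fold change -1.22 with SE 0.24, adjusted p = 0.0290). Ppard, a nuclear receptor for fatty acids, fell by 0.46 on the log2 scale (adjusted p = 0.0420). For Mgll, Dio2 and Ppard the adjusted p was at most 0.224 without cKO_M0 replicate 3, 0.0965 when replicate 2 was left out instead, 0.254 without WT_M0 replicate 6 and 0.120 when replicate 4 was. Pltp, phospholipid transfer protein, is abundant and fell from 1429 ± 90.6 to 1103 ± 41.6 CPM (log2 fold change -0.37 with SE 0.09, adjusted p = 0.0471). Among other large falls, Eps8l1 was at 4.12, 1.90 and 5.0003 CPM in cKO_M0 and 10.5, 8.20 and 10.2 CPM in WT_M0 (log2 fold change -1.39 with SE 0.31, adjusted p = 0.0435). Sorbs3, an adaptor of cell adhesions, fell by 1.23 and Gpr162, an orphan receptor, by 1.02 on the log2 scale (adjusted p = 0.0299 and 0.0257). Myo1f, a myosin of leukocytes, fell by 0.30 (adjusted p = 0.0456) and passed in none of the 6 fits without 1 library.

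Checkpoint ligands and feedback genes changed in small numbers. Of 14 costimulatory and checkpoint ligands, Cd274 (PD-L1) and Vsir (VISTA) fell, and the 1 that rose was Raet1d. Cd274 was at 24.7, 27.99 and 26.4 CPM in cKO_M0 and 35.5, 35.6 and 35.9 CPM in WT_M0 (log2 fold change -0.44 with SE 0.08, adjusted p = 0.0258). Vsir was at 489, 480.2 and 455 CPM in cKO_M0 and 591, 560.3 and 635 CPM in WT_M0 (log2 fold change -0.33 with SE 0.08, adjusted p = 0.0456). In the NF-kB list, 1 of 24 rose and 2 fell, with a median of -0.12. Tnip3, an inhibitor of NF-kB signalling, rose by 0.50, and 2 ubiquitin ligase genes fell, Birc3 by 0.39 and Peli2 by 0.95 on the log2 scale. Peli2 overlapped between groups. Arid5a, whose protein stabilises Il6 mRNA against Regnase-1, was the 1 of 27 mRNA stability genes that passed, at 8.84, 10.4 and 9.81 CPM in cKO_M0 and 13.5, 11.8 and 14.4 CPM in WT_M0 (log2 fold change -0.45 with SE 0.09, adjusted p = 0.0382). Of 62 splicing regulators 1 passed, U2af1, a subunit of the factor that recognises the 3′ splice site, at 38.98, 42.4 and 41.5 CPM in cKO_M0 and 29.9, 34.1 and 28.6 CPM in WT_M0 (log2 fold change 0.41 with SE 0.09, adjusted p = 0.0407); gene totals hold no measure of splicing itself. Of 38 stress response genes 2 rose, Chac1 by 0.88 and the amino acid transporter gene Slc1a4 by 0.77.

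Interferon-stimulated genes overlapped between the genotypes. Of 34 type I interferon-stimulated genes 0 passed (3 higher and 0 lower at an unadjusted p under 0.05, and 0 with DESeq2 and limma-voom), 32 had a log2 fold change above 0, and the median was 0.20. Their summed level was 3480, 5857 and 5318 CPM in cKO_M0 replicates 1, 2 and 3 and 4128, 5001 and 3928 CPM in WT_M0 replicates 4, 5 and 6. The lowest sum of all 6 was thus a knockout library and the highest wild-type sum was replicate 5. Without cKO_M0 replicate 1 the median was 0.43 and 6 of the 34 rose, and without cKO_M0 replicate 2 it was 0.03 with 0 past the test. Ifitm3, which blocks viral entry, had 375, 498 and 494 CPM in cKO_M0 and 363, 390.5 and 381 CPM in WT_M0 (log2 fold change 0.27 with SE 0.10, adjusted p = 0.166). Among 20 interferon-gamma response genes Ly6a rose and Il18bp, a decoy for interleukin-18, fell by 0.48 on the log2 scale (adjusted p = 0.0289).

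No member passed with edgeR in 4 further lists. Of 17 genes of alternative (M2) activation, 2 were higher and 2 lower at an unadjusted p under 0.05, and 0 passed with DESeq2 or limma-voom. Of 23 cholesterol synthesis genes, 0 and 2 did so, and again 0 passed with either tool. Of 30 glycolysis and hypoxia genes, 12 were higher and 3 lower unadjusted, with 2 and 2 past the test in DESeq2 and 1 and 1 in limma-voom, and the median was 0.17. Of 24 NRF2 and iron genes, 2 and 4 did so unadjusted, with 1 higher and 4 lower in DESeq2 and 0 and 1 in limma-voom. Slc40a1, the iron exporter ferroportin, came closest among these, at 23.8, 12.2 and 12.8 CPM in cKO_M0 and 37.2, 21.6 and 38.5 CPM in WT_M0, overlapping (log2 fold change -0.99 with SE 0.24, adjusted p = 0.0516).

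A large ratio stood in the Ugt1a cluster on chromosome 1, whose genes join separate first exons to shared later exons and encode glucuronosyltransferases. These genes are described after their values were seen. Ugt1a8 (ENSMUSG00000089675) had 0 counts in all 3 cKO_M0 libraries and 56, 55 and 64 in WT_M0, which is at least 19.6-fold lower in cKO when 3 counts per library are taken as the floor. The same held in M1, with 0, 0 and 0 against 12, 22 and 24 counts. Ugt1a9 had 0, 0 and 0 counts against 12, 19 and 18, at least 5.49-fold lower in cKO. Ugt1a6b had 2, 8 and 3 counts in cKO_M0 and 29, 61 and 47 in WT_M0 (adjusted p = 0.0106). Ugt1a7c, by contrast, had 3795, 3660 and 3429 counts against 3759, 3895 and 3806, overlapping ranges. Because the exons are shared, the split of reads between these genes is uncertain. Tnfrsf11a lies on the same chromosome, 100 protein-coding genes away in the RefSeq order. Of the measured genes among the 50 on each side, 4 of 52 (7.69%) passed around Ugt1a8, 1 of 57 (1.75%) around Tnfrsf11a and 1 of 56 (1.79%) around Zc3h12c, against 1.74% of all genes. The 4 were Ugt1a9, Ugt1a6b, Scly at -0.42 and Rbm44 at 1.89. Ugt1a8 was chosen as a centre because it passed, and Ugt1a9 and Ugt1a6b share its later exons. The share around it therefore cannot be read against that of all genes.

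Igf2bp3, an oncofetal RNA-binding protein gene chosen after its values were seen, had the largest fitted rise among genes whose higher group mean was 5 CPM or more. It stood at 0.978, 7.70 and 7.29 CPM in cKO_M0 and 1.10, 1.53 and 1.13 CPM in WT_M0, so cKO_M0 replicate 1 was below all 3 wild-type libraries (log2 fold change 2.08 with SE 0.50, adjusted p = 0.0492).

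The resting-state differences were then set beside those after lipopolysaccharide and interferon-gamma, which come from other libraries. Of the 110 genes higher in unstimulated cKO, 18 (16.4%) were also higher in M1, where 9.28% of all genes were, and 12 were lower there. Of the 143 lower genes, 54 (37.8%) were also lower in M1, where 9.84% of all genes were, and 8 were higher. As a share of the M1 lists these overlaps were 1.34% and 3.78%. Both states were tested in 1 fit that shares its estimate of the spread, so passing in M0 and passing in M1 are not independent. The difference between the M1 and the M0 effect was tested directly as an interaction. It passed for 78 of the 253 genes and for 1268 of all 14517 (8.73%). In all 78 the M1 effect was smaller or opposite: it lay below the M0 value for 34 higher genes and above it for 44 lower genes. Because the genes were chosen by their M0 values, which also enter the difference, this direction was largely fixed by the choice.

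Among the 80 named genes that passed in M0, 25 passed for the difference. Spp1 was higher in unstimulated cKO and lower in M1, at 0.52 and -0.85 (difference -1.37, adjusted p = 7.04e-05). Rgs1, Rgs2, Dusp5, Ccl9, Ccne1 and Chac1 were also higher in M0 and lower in M1, each past the test in both states. Birc3 and Vsir went the other way, lower in M0 and higher in M1, again past the test in both. The macrophage genes Mertk, Mmp14 and Ms4a4a, lower in M0, did not pass in M1 (M1 log2 fold changes of 0.16, -0.23 and 0.25). For Cd74 the fall of 0.91 in M0 stood beside a value of -0.26 in M1 that did not pass, with a difference of 0.65 (adjusted p = 0.0271). Ciita passed in both states, at -1.12 and -0.63, and its difference did not (adjusted p = 0.160). Src, Vwf, Psap, Gpr162 and Ctsz had nearly the same value in both, Src at -0.66 and -0.65. Mfge8, Mgll, Dio2 and Sorbs3 were lower in both states, with M1 log2 fold changes of -1.42, -2.03, -2.08 and -2.09, and none of their differences passed. Ccl2, Ccl7, Cxcl2, Tnf, Ptgs2, Glipr2, Tnip3 and Cdkn1a were higher in both states and passed in both.

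**Figure D5:**
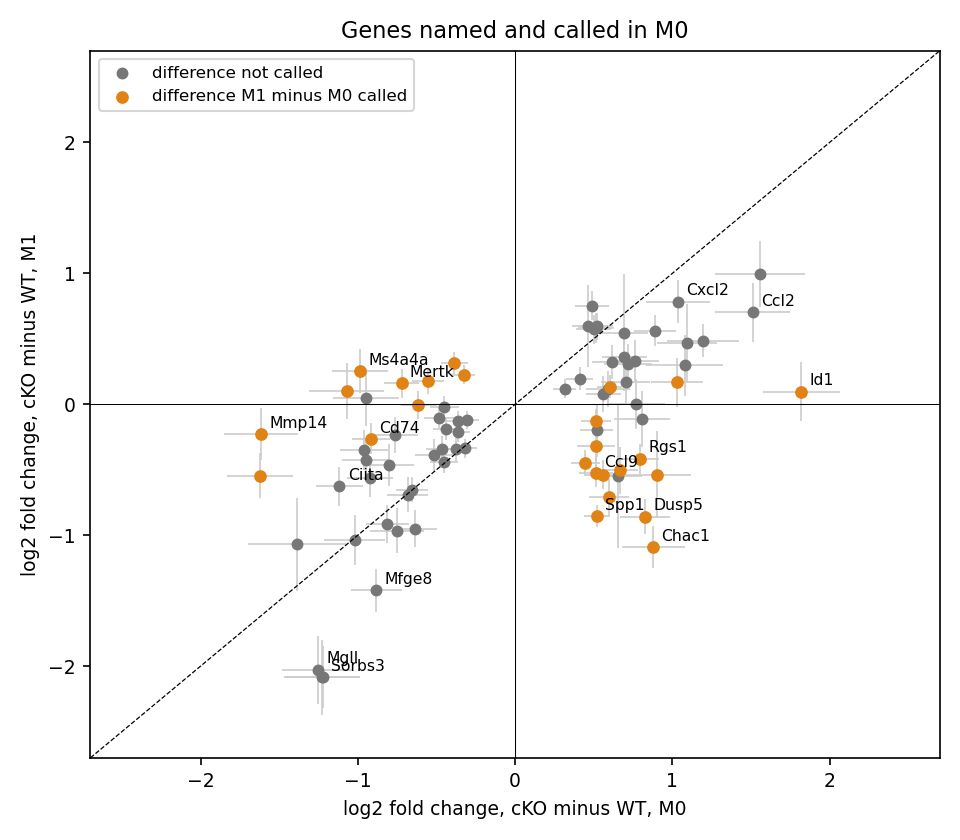
Each point is 1 of the 80 named genes that passed in M0, at its log2 fold change of cKO over WT in M0 (x axis) and M1 (y axis), with bars of 1 SE; orange points are the 25 whose M1 minus M0 difference passed. The dashed diagonal marks equal effects; Spp1, Dusp5 and Chac1 lie in the lower right, higher in M0 and lower in M1, and Mgll and Sorbs3 in the lower left, lower in both.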

How the data were processed

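RNA of 12 libraries (4 groups of 3) was sequenced, and the authors deposited a table of raw counts per gene. The submitters' processing notes name featureCounts 2.0.3, HISAT2 2.2.1, SAMtools 1.16.1, Trimmomatic 0.39 and build GRCm39; the sources used here do not give the strand setting, the annotation release or how multimapping reads were treated. Of values from 1 to 10, 60.9% were even (50% is usual), so low counts may not be single reads, and counts halved and rounded up were tried. Symbols came from a reference table for 52073 IDs; the 4907 without one stayed in the test.

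Genes with at least 10 counts in at least 3 of the 6 unstimulated libraries entered edgeR 4.0.16 under R 4.3.3 (TMM scaling, quasi-likelihood F-test, all 12 libraries with 1 mean per group, which then share 1 estimate of the spread), and p-values were adjusted over 14517 genes by the Benjamini-Hochberg method at 0.05. M0, M1 and their difference were contrasts of that fit. CPM are TMM-scaled counts per library of equal size; the principal components used log2 CPM with a prior count of 2. In simulated data of these libraries, the test recovered 78 of 100 genes changed by 1 and 51 of 100 changed by 0.6 on the log2 scale, with 4 false among 133 calls. Each gene was drawn independently, without shifts shared across the genes of a library. The recovered and false shares may therefore not hold for the real libraries.

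Members and the 42 gene lists (1006 entries, 1 unmatched) were chosen with earlier results of these data known. Genes were named by this rule: the Regnase family and Tnfrsf11a; the 15 largest changes each way among called genes with a proper symbol, at least 5 CPM and no overlap; the 10 most abundant called genes; up to 5 called members of each list, or the 2 with the smallest p where none was called; and all class II and CC chemokine members; 1 gene that the rule names is not reported here. Alternatives were another scaling, filter, test (DESeq2 1.42.0, limma-voom 3.58.1), the 6 unstimulated libraries alone, each library left out and, added after seeing the data, a gene-length trend removed.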

Additional observations from a re-analysis of the deposited data

Results flagged for a closer look

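The knockout effect differed between the stimulated and the unstimulated state, by edgeR's test of the difference itself, for 25 of the 80 named genes that had passed in M0. All but 1 of them are given below, and the values are M1 minus M0 differences of the log2 fold change of cKO over WT. Over all 14517 genes the difference passed for 8.73%. Because the named genes were chosen by M0 values, which also enter the difference, its direction was largely fixed by the choice.

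Of the genes higher in unstimulated cKO, those named here had a lower effect in M1. Among the cell cycle genes the difference was -1.10 for Ccne1, -1.17 for Ccne2, -0.64 for Pcna, -0.47 for Gmnn, -0.83 for Spc25 and -1.44 for Psmc3ip. In M1 alone, Ccne1 passed as lower (adjusted p = 0.00405) and the other 5 named here did not pass. Among signalling and secreted genes it was -1.21 for Rgs1, -0.89 for Rgs2, -1.68 for Dusp5, -1.72 for Id1, -1.37 for Spp1 and -1.04 for Ccl9. Of these, Id1 had an M1 effect of 0.10 that did not pass, and the others were lower in M1 past the threshold. It was -1.97 for Chac1, a stress response gene that degrades glutathione, and -0.86 for Raet1d.

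Of the genes lower in unstimulated cKO, 10 had a higher effect in M1. The difference was 0.65 for Cd74 and 0.61 for H2-DMa, the only ones of the 6 class II genes that fell for which it passed. It was 1.38 for Mmp14, 1.17 for Mmp9 and 1.08 for Lox, where Lox stayed lower in M1 (adjusted p = 0.0373). It was 0.88 for Mertk, 1.24 for Ms4a4a and 0.73 for Cmklr1, none of which passed in M1. It was 0.70 for Birc3 and 0.55 for Vsir, both higher in M1 (adjusted p = 0.0176 and 0.0469).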

How the results depend on the processing

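All 253 genes kept their direction in all 21 alternatives. For the 248 of them without overlap between the groups this was largely fixed beforehand. The counts of 253 changed, 110 higher and 143 lower genes ranged, over the fits without 1 of the 12 libraries, from 1 to 461, from 0 to 215 and from 1 to 260; with 2 libraries in a group, its spread is taken from the shared estimate. DESeq2's Wald test called 873 (408 higher, 465 lower), and limma-voom 513 (260 and 253). With no filter on low counts the calls were 1182 (709 and 473, 60% higher against 43.5%) over 27501 genes. The 6 unstimulated libraries alone gave 388 (205 higher), and the removed gene-length trend, chosen after seeing the data, 392 (227 lower). Of the 253, 246 were shared with DESeq2, 239 with limma-voom, 196 with the 6 libraries alone and 238 with the trend removed. Halved counts, which moved them to 363, and the other scalings and filter (244 to 260) stayed within 1.5 times. The 25 named genes with a difference between states became 43 with no filter and 17 to 32 without 1 library. The cause of these shifts was not tested. Of the described genes that the naming rule covers, those whose direction turned had not passed: without 1 unstimulated library the log2 fold change ranged from -0.34 to 0.0202 for Tnfrsf11a, -0.21 to 0.0233 for Zc3h12c, -0.09 to 0.08 for Zc3h12a, -0.88 to 0.19 for Zc3h12b, -0.0014 to 0.10 for Zc3h12d, -0.37 to 0.21 for H2-DMb2, -0.02 to 0.26 for H2-Ob, -0.13 to 0.08 for Rfxank, -0.03 to 0.05 for Rfxap, -0.03 to 0.07 for Nfya and -0.46 to 0.04 for Ccl5. For Sp110, which had not passed either, the range was -0.02 to 0.23. No paired analysis was possible because replicate numbers run from 1 to 12 and none is shared between groups. With 3 libraries a group, small changes are often missed, and genes near the count minimum rest on few reads. How often they are missed in the real libraries is not given by the self-test, which held no shifts shared within a library.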
